A study of Mus musculus with 12 samples.

Results

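Lin28b, Igf2bp1, Igf2bp2, Igf2bp3, Hmga1, Hmga2 and Mycn are genes of the fetal growth programme that many tumours switch on again. They were named by gene symbol, with no threshold on their levels but with earlier results of these data known, and each of the 7 symbols matched 1 of the 55450 genes in the count table. RNA sequencing was done on tibialis anterior (TA) muscle, a fast muscle of the lower leg, from wild-type mice of the 129Pas background before birth at embryonic stage E18.5 and at 2 weeks and 7 weeks of age. Each age is represented by 4 mice, which gives 12 libraries with no mutant or treated animal among them, and in the study these ages served to follow dynamin 2 isoforms while muscle matures. RNA was taken from TA muscle tissue with no sorting of cells described. Fewer cells of a type and less RNA per cell therefore cannot be told apart in any value given here.

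LIN28B is an RNA-binding protein that blocks the maturation of let-7, a microRNA family that accumulates as tissues differentiate. The IGF2BP proteins bind messenger RNAs, including that of Igf2, and alter their stability, location and translation. HMGA1 and HMGA2 are small architectural proteins that bend AT-rich DNA in chromatin, and MYCN is a transcription factor of the MYC family that drives growth and cell division. The messenger RNAs of Lin28b, Hmga2 and the Igf2bp genes are textbook targets of let-7, which binds sites in their 3′ untranslated regions (UTRs) through its seed, bases 2 to 8 of the mature microRNA.

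The mature mouse let-7 family is shown because 6 of the 7 genes hold a match to its seed. All 9 names found in the RefSeq table (build GRCm38.p6) share the seed GAGGUAG, printed in capitals, and 4 of them are given here. MicroRNAs were not measured in these libraries.
let-7a-5p: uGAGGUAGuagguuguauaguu
let-7d-5p: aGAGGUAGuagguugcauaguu
let-7g-5p: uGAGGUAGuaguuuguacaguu
miR-98-5p: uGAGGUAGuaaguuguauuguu

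The 3′ UTRs were searched on the sense strand for CTACCTC, the 7 bases that pair with this seed. Lin28b, Igf2bp1 and Hmga2 held 4 matches each, Igf2bp2, Igf2bp3 and Hmga1 held 1 each, and Mycn held none. Examples follow as 28-base sites in build GRCm39 with the match in capitals, the 4 sites of Hmga2 first because that gene went from at least 1639 counts to at most 8 per library.
Hmga2 site 1, chr10:120200128-120200155, minus strand: gggcgccgacattcaatttCTACCTCag
Hmga2 site 2, chr10:120198891-120198918, minus strand: taatccccactcctcaataCTACCTCtg
Hmga2 site 3, chr10:120198453-120198480, minus strand: cttcctgatttgcaaggaaCTACCTCca
Hmga2 site 4, chr10:120197595-120197622, minus strand: gtacaatcaaaacacactaCTACCTCtt
Lin28b site 1, chr10:45257117-45257144, minus strand: cttcacccgggcgggaagtCTACCTCat
Igf2bp1 site 2, chr11:95850182-95850209, minus strand: gaaccagcagtgctattaaCTACCTCag
Igf2bp2 site, chr16:21878222-21878249, minus strand: aaaaacacacaaataaaagCTACCTCag
Igf2bp3 site, chr6:49063720-49063747, minus strand: aacgtgcatttttactcaaCTACCTCag
Hmga1 site, chr17:27782247-27782274, plus strand: cttctcctctgttcacaaaCTACCTCtg

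A match of 7 bases is common in long 3′ UTRs, and 10.8% of the 19522 mouse 3′ UTRs examined held at least 1. The 3′ UTR of Hmga2 was 3021 nt long, and of 1334 UTRs within 10% of that length 16.6% held a match and 0% held as many as 4. The Igf2bp1 3′ UTR, 6337 nt, also had no equal in number of matches among 320 UTRs of like length, and Lin28b (4515 nt) was equalled by 0.248% of 806. The single matches of Igf2bp2, Igf2bp3 and Hmga1 were each shared by 7.81% to 13.6% of UTRs of like length. A match describes the sequence and does not show that the site is used.

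**Figure D1:**
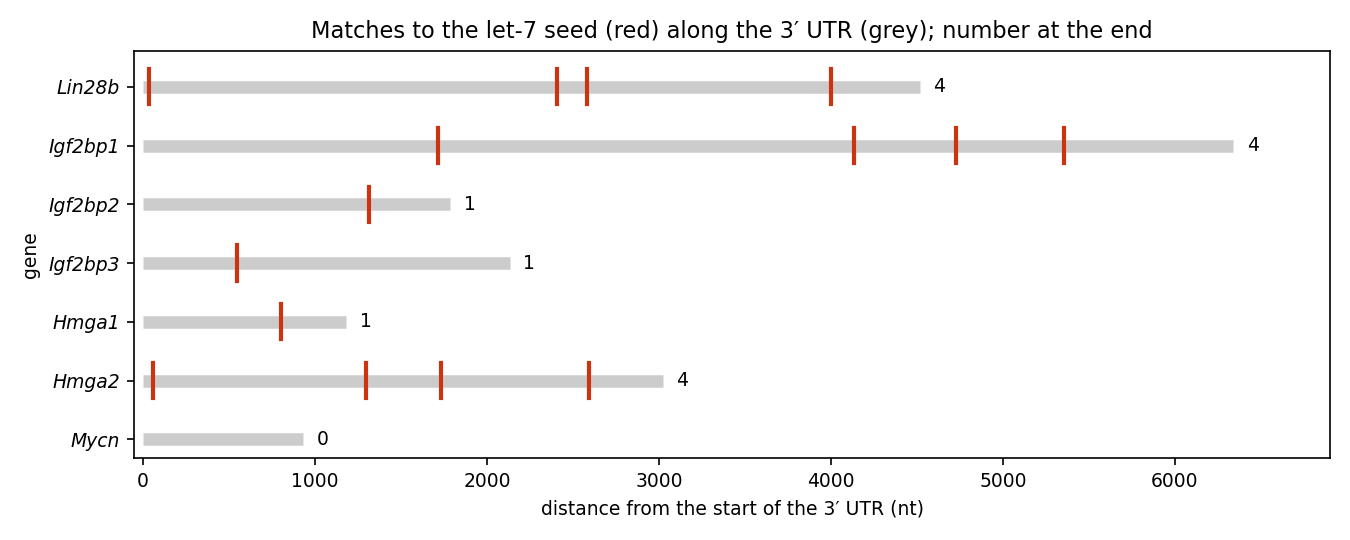
Position of each match to the let-7 seed (red) along the 3′ UTR (grey, nt from its start) of the 7 genes, with the number of matches at the right. Lin28b, Igf2bp1 and Hmga2 hold 4 matches each in 3′ UTRs of 4515, 6337 and 3021 nt, and Mycn holds 0.

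The libraries held 63018968 to 123449246 counts. Normalised read counts are given as CPM, a gene's counts scaled to a library of fixed size, after TMM scaling, which sets a common level from genes that move little. The TMM factors were 1.62 to 1.77 at E18.5 and 0.667 to 0.946 at the later ages, so the choice of scaling bears on small changes. The 6 markers of skeletal muscle were present in all libraries, with a summed CPM of 8870 to 17700 at E18.5 and of 139000 to 178000 later. The 5 adipocyte markers summed to 383 and 351 CPM in E18.5 replicates 3 and 4, to 10.8 and 14.7 in the other E18.5 libraries and to 3.04 to 8.89 later. E18.5 replicate 2 had the highest sums of cartilage and bone markers (147 CPM) and epidermis markers (54.7 CPM). The 8 markers of proliferating cells summed to 460 to 667 CPM at E18.5, 110 to 219 at 2 weeks and 22.3 to 34 at 7 weeks. All 8 were lower at the later age in each comparison. Fibroblast markers summed to 6380 to 11100, 3330 to 4950 and 803 to 2850 CPM at the 3 ages, with 4 of 6 lower at 2 weeks, and markers of myoblasts and satellite cells to 131 to 252, 74.8 to 156 and 26.8 to 41.4 CPM, also with 4 of 6 lower. Lower here means an edgeR adjusted p below 0.05. Beside these counts, 34.2% of all tested genes were lower at 2 weeks, 14.0% from 2 to 7 weeks and 37.1% from E18.5 to 7 weeks. The part of these cell types in the changes of the 7 genes was not tested.

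From E18.5 to 2 weeks, 5 of the 7 genes fell and 1 rose at an adjusted p below 0.05 (edgeR quasi-likelihood test, Benjamini-Hochberg over 19276 tested genes). Lin28b, Igf2bp1, Igf2bp2, Igf2bp3 and Hmga2 were lower, Hmga1 was higher, and Mycn did not pass. Over all tested genes 34.2% were lower and 31.5% higher in this comparison. The same 6 calls to 2 weeks were made without E18.5 replicates 3 and 4, a choice made after the adipocyte markers had been seen, with Hmga1 nearest to the threshold (log2 change 1.2, adjusted p = 0.0383). From 2 to 7 weeks only Igf2bp1 and Mycn passed, both lower, where 14.0% of tested genes were lower and 13.5% higher. From E18.5 to 7 weeks 6 genes were lower and Hmga1 was higher, beside 37.1% lower and 34.3% higher among all genes. The median log2 change of the 7 genes from E18.5 was -4.98 to 2 weeks and -5.86 to 7 weeks, or -4.43 with Lin28b set at the bound its 0 counts allow. The median of all tested genes was -0.09 in both. The later interval had a median of -0.88 (-0.74 without Lin28b, which was at or under the floor at both ages), beside -0.03.

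**Figure D2:**
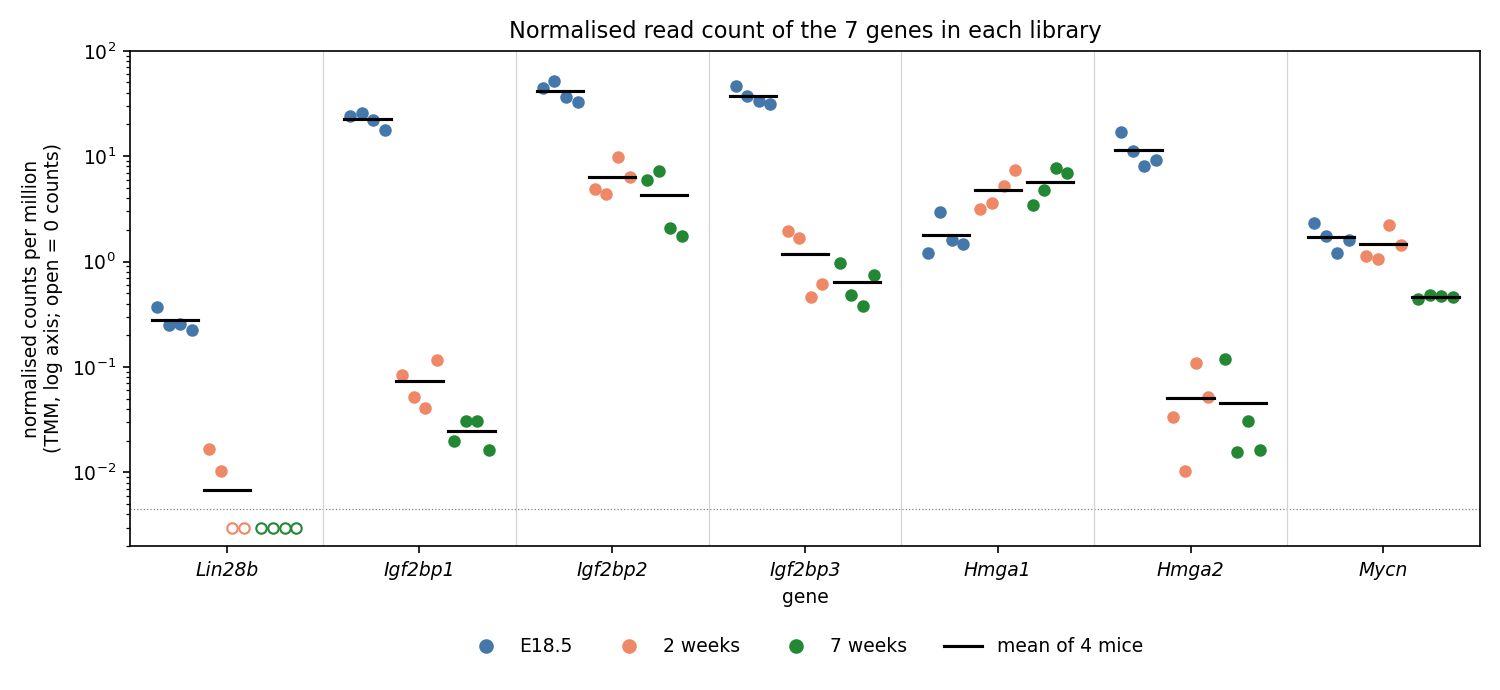
Normalised read count (TMM CPM, log axis) of the 7 genes in each library at E18.5, 2 weeks and 7 weeks. Each point is 1 mouse, bars are means of 4, and open points below the dotted line mark libraries with 0 counts. Igf2bp1 and Hmga2 fall from 7.99 CPM or more to 0.12 or less, while Hmga1 lies higher after birth.

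Lin28b (ENSMUSG00000063804, chr10:45252646-45362557 in GRCm39, minus strand) was the scarcest of the 7 genes. It had 54, 43, 53 and 45 counts in the E18.5 libraries, 1, 1, 0 and 0 counts at 2 weeks and 0 in each of the 4 libraries at 7 weeks. The E18.5 values lay above every later value. These counts correspond to 0.277 ± 0.0667 CPM at E18.5 (SD, n = 4) and 0.00677 ± 0.00825 at 2 weeks. Per unit of exposure the E18.5 libraries held 41.3 times as many Lin28b counts as the 2-week libraries, with a 95% counting interval of 11.3 to 344. Against 7 weeks the level at E18.5 was at least 21.6-fold higher, taking a floor of 3 counts over the group. Such intervals and floors cover counting error only, and a count of 0 allows up to 0.0125 CPM at 7 weeks. The fall to 2 weeks passed the test (edgeR adjusted p = 3.39e-05), and the exact two-sided permutation test on the same values gave p = 0.0286, the smallest that 4 against 4 mice can give (0.04 after Benjamini-Hochberg over 21 such tests). No fold is given from 2 to 7 weeks, since both ages were at or under the floor.

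Lin28a, the paralogue that recruits uridylating enzymes to let-7 precursors in stem cells, was more abundant per length than Lin28b. Of the summed Lin28 level per kb of transcript, Lin28b made up 16.6% ± 2.72 at E18.5 (SD, n = 4) and 0.397% ± 0.464 at 2 weeks. Lin28a itself stood at 0.906 ± 0.27 CPM at E18.5, 0.672 ± 0.469 at 2 weeks and 0.221 ± 0.0742 at 7 weeks. Lin28a did not pass to 2 weeks (log2 change -0.43 ± 0.44 SE, edgeR adjusted p = 0.404) and fell from 2 to 7 weeks (-1.60 ± 0.49, adjusted p = 0.0276).

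Igf2bp1 (ENSMUSG00000013415, chr11:95847989-95896911, minus strand) showed the largest fall of the 7 genes. Its CPM at E18.5 was 24.1, 25.8, 21.8 and 17.8, and at 2 weeks 0.0839, 0.0515, 0.0411 and 0.118. At 7 weeks it was 0.0201, 0.0311, 0.0306 and 0.0165, from 1 or 2 counts in each library. The 3 ages did not overlap. The log2 change to 2 weeks was -8.25 ± 0.29 (SE, edgeR adjusted p = 4.40e-10), and the ratio of counts was 308 (95% counting interval 203 to 491). From 2 to 7 weeks the log2 change was -1.49 ± 0.46 (adjusted p = 0.0466), from 22 counts in all at 2 weeks and 6 at 7 weeks, a ratio of 2.88 (1.13 to 8.67). This later call was lost without 2 weeks replicate 1 (adjusted p = 0.0890) or 4 (0.195) and without 7 weeks replicate 1 (0.0882), 2 (0.0712), 3 (0.0611) or 4 (0.117).

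Igf2bp3 (ENSMUSG00000029814, chr6:49062144-49192447, minus strand) had CPM values of 46.0, 37.4, 33.5 and 31.0 at E18.5. They were 1.95, 1.67, 0.466 and 0.614 at 2 weeks and 0.963, 0.482, 0.383 and 0.742 at 7 weeks. All E18.5 libraries lay above all later ones, and the later ages overlapped. The log2 change to 2 weeks was -4.98 ± 0.44 (SE, edgeR adjusted p = 6.70e-07), a count ratio of 30.9 (95% counting interval 27.8 to 34.4). From 2 to 7 weeks the log2 change of -0.88 ± 0.42 did not pass (adjusted p = 0.131), but it did without 2 weeks replicate 3 (-1.14, adjusted p = 0.0425) and when scaled to the total count (-1.27, adjusted p = 0.0425). The last part of Igf2bp3 overlaps Malsu1 on the other strand, and the strand setting of the counting is not given in the sources used here, so some low counts after birth could belong to either gene.

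Igf2bp2 (ENSMUSG00000033581, chr16:21877759-21982499, minus strand) fell least of the family and kept a clear level after birth. Its CPM was 44.1, 51.2, 36.7 and 32.4 at E18.5, 4.93, 4.41, 9.93 and 6.39 at 2 weeks, and 5.96, 7.18, 2.08 and 1.76 at 7 weeks. E18.5 did not overlap with the later ages, whereas 7 weeks replicates 1 and 2 lay among the 2-week values and replicates 3 and 4 below them. The log2 change to 2 weeks was -2.68 ± 0.42 (SE, edgeR adjusted p = 7.57e-05), and the count ratio was 6.39 (95% counting interval 6.11 to 6.70). The change from 2 to 7 weeks, -0.60 ± 0.40, did not pass (adjusted p = 0.285).

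The make-up of the Igf2bp family changed with age. Divided by transcript length, the Igf2bp genes together stood at 20.6 ± 3.44 CPM per kb at E18.5, 1.75 ± 0.439 at 2 weeks and 1.13 ± 0.641 at 7 weeks (SD, n = 4). Igf2bp2 made up 43.1% to 50.3% of that sum in the E18.5 libraries, 71.3% to 95.3% at 2 weeks and 70.2% to 93.5% at 7 weeks. Igf2bp3 made up 36.7% to 44.8% at E18.5 and 4.46% to 29.5% in the later libraries. Igf2bp1 went from 12.1% to 13.7% at E18.5 to 0.85% or less in every later library. None of the 100-base windows of one Igf2bp transcript occurred in another, so reads of the 3 genes should not be confused at that length.

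**Figure D3:**
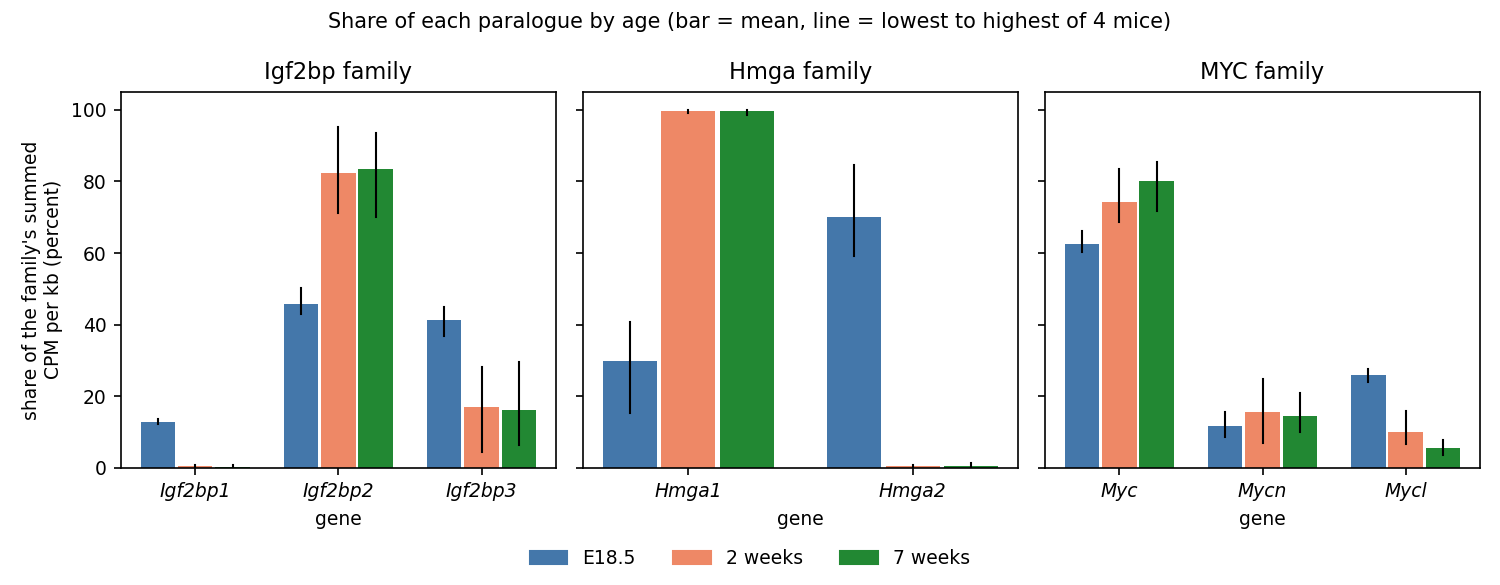
Share of each paralogue in the summed level of its family (percent of CPM per kb) at E18.5, 2 weeks and 7 weeks. Bars are means of 4 mice and lines run from the lowest to the highest library. Igf2bp2 rises from 45.8% to 83.4% of the Igf2bp sum and Hmga1 from 29.9% to 99.6% of the Hmga sum between E18.5 and 7 weeks.

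Hmga2 (ENSMUSG00000056758, chr10:120197173-120313095, minus strand) had 2473, 1925, 1639 and 1832 counts at E18.5. It had 2, 1, 8 and 4 counts at 2 weeks and 6, 1, 2 and 1 counts at 7 weeks. The E18.5 libraries stood far above the rest, and the later ages overlapped. In CPM the level was 11.4 ± 4.07 at E18.5, 0.0514 ± 0.0424 at 2 weeks and 0.0458 ± 0.0502 at 7 weeks (SD, n = 4). The log2 change to 2 weeks was -7.80 ± 0.54 (SE, edgeR adjusted p = 9.62e-08), with a count ratio of 222 (95% counting interval 135 to 398). No difference was detectable from 2 to 7 weeks at 15 against 10 counts in all (log2 change -0.23 ± 0.76, adjusted p = 0.853), and the count ratio of 1.18 had an interval of 0.494 to 2.93.

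Hmga1 (ENSMUSG00000046711, chr17:27775449-27782648, plus strand) went the other way on the TMM scale. Its CPM was 1.21, 2.96, 1.61 and 1.46 at E18.5, 3.15, 3.58, 5.19 and 7.33 at 2 weeks, and 3.41, 4.75, 7.77 and 6.94 at 7 weeks. All later libraries lay above all E18.5 libraries, but the highest E18.5 value came close to the lowest at 2 weeks. The log2 change was 1.41 ± 0.35 (SE) to 2 weeks (edgeR adjusted p = 0.00290) and 1.66 ± 0.35 to 7 weeks (adjusted p = 0.000774). It did not pass from 2 to 7 weeks (0.25 ± 0.35, adjusted p = 0.625).

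The rise of Hmga1 depended on how the libraries were scaled. Scaled to the total count, Hmga1 stood at 3.01 ± 1.30 CPM at E18.5, 4.12 ± 1.33 at 2 weeks and 3.91 ± 1.31 at 7 weeks (SD, n = 4), and neither change passed (log2 0.45, edgeR adjusted p = 0.224, and 0.38, adjusted p = 0.301). On that scale the change from 2 to 7 weeks turned to -0.08. Scaling to the total count also moved the median of all genes to -1.02 to 2 weeks, -0.38 from 2 to 7 weeks and -1.37 to 7 weeks. The split of all calls to 2 weeks moved with it from 6069 higher and 6590 lower to 2544 higher and 11912 lower. After a correction for transcript GC content within each library, the Hmga1 change to 2 weeks was 0.31 (adjusted p = 0.261), whereas the rise to 7 weeks still passed (0.93, adjusted p = 0.00255). The Hmga1 transcript was GC-rich at 60.7%, at percentile 97.5 of the tested genes, and the 722 tested genes of like GC had a median log2 change of 1.29 to 2 weeks.

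Hmga1 also shares sequence with Hmga1b, a copy on chromosome 11, where 59.7% of its 100-base windows recur, so the split of reads between the pair is uncertain. From position 27778109 to its end, the larger part of its span, Hmga1 overlaps Smim29, a protein-coding gene on the other strand. The first bases of Hmga1 overlap Gm49774, a long noncoding RNA gene also on the other strand. The strand setting of the counting is not given, so some Hmga1 counts could belong to these genes. Hmga1b stood at 1.07 ± 0.667 CPM at E18.5, 4.01 ± 1.29 at 2 weeks and 4.23 ± 2.04 at 7 weeks (SD, n = 4). The summed counts of both gave a log2 change of 1.61 to 2 weeks (edgeR adjusted p = 0.00172) and of 1.79 to 7 weeks (adjusted p = 0.000681). Per length, Hmga1 made up 15.4% to 40.8% of the Hmga1 and Hmga2 sum at E18.5 and 98.7% to 99.9% in the later libraries. On the TMM scale the sum itself was 3.54 ± 0.904 CPM per kb at E18.5, 2.76 ± 1.09 at 2 weeks and 3.28 ± 1.13 at 7 weeks, and these ranges overlapped. The sum leaves out Hmga1b and was not taken on the total-count scale. On that scale the Hmga1 change did not pass and mean Hmga2 went from 18.8 CPM at E18.5 to 0.0435 at 2 weeks. The overlap may therefore not hold under other scalings.

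Mycn (ENSMUSG00000037169, chr12:12986076-12992915, minus strand) overlapped between E18.5 and 2 weeks on the TMM scale and fell after that. Its CPM was 2.33, 1.75, 1.22 and 1.60 at E18.5, 1.14, 1.05, 2.23 and 1.45 at 2 weeks, and 0.441, 0.482, 0.475 and 0.462 at 7 weeks. The E18.5 and 2-week libraries overlapped, and all 7-week libraries lay below both. The log2 change to 2 weeks, -0.23 ± 0.27 (SE), did not pass (edgeR adjusted p = 0.468). From 2 to 7 weeks Mycn fell by 1.66 on the log2 scale (SE 0.29, adjusted p = 0.00127), a count ratio of 3.11 (95% counting interval 2.52 to 3.86). The change to 2 weeks did pass when scaled to the total count (-1.17, adjusted p = 0.000826) or corrected for GC content (-0.81, adjusted p = 0.0327).

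The library with the highest Mycn at 2 weeks, replicate 3, also had the highest sum of proliferation markers at that age, 219 CPM beside 110 to 127 in the others. The same library had the highest 2-week values of Igf2bp2 and Hmga2, but the lowest of Igf2bp1 and Igf2bp3 and 0 counts of Lin28b. The part of dividing cells in these values was not tested. Within the MYC family Mycn was a smaller component than Myc at each age. Per length it made up 8.49% to 15.6% of the sum of Myc, Mycn and Mycl at E18.5, 6.88% to 24.7% at 2 weeks and 9.99% to 20.9% at 7 weeks, whereas Mycl went from 26% ± 1.69 to 5.53% ± 2.24 (SD, n = 4).

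**Figure D4:**
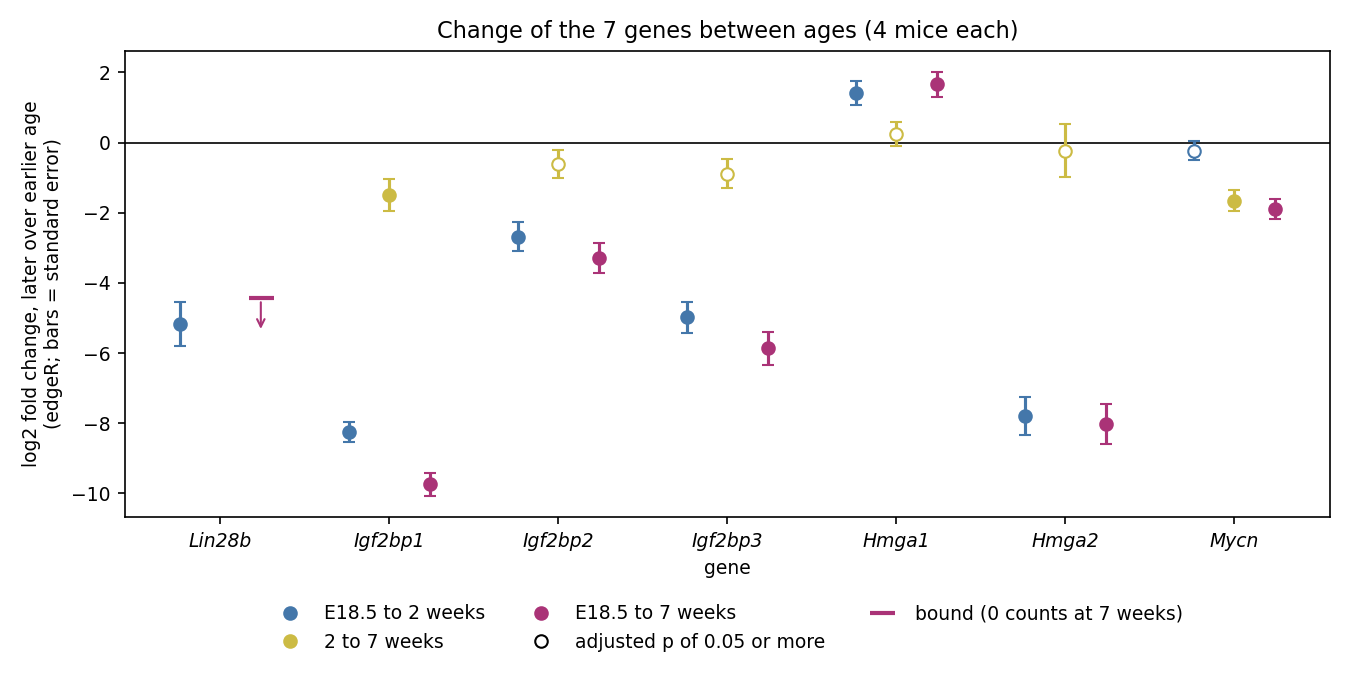
Log2 fold change of the 7 genes between ages (later over earlier, edgeR, bars are standard errors, 4 mice per age). Filled points passed an adjusted p of 0.05, and the Lin28b change to 7 weeks is drawn as a bound of -4.43 because that age had 0 counts. Igf2bp1 (-8.25) and Hmga2 (-7.80) show the deepest falls to 2 weeks, and Mycn falls between 2 and 7 weeks (-1.66).

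The timing of the change differed between genes. The change to 2 weeks differed from the change after 2 weeks for 5 of the 7 genes (edgeR, adjusted p below 0.05), beside 38.4% of all tested genes. It was the more negative one for Igf2bp1 (difference of the log2 changes -6.76 ± 0.81 SE, adjusted p = 6.14e-05), Hmga2 (-7.57 ± 1.23, adjusted p = 0.000543), Igf2bp3 (-4.10 ± 0.74, adjusted p = 0.00114) and Igf2bp2 (-2.08 ± 0.71, adjusted p = 0.0337). For Mycn the later change was the more negative (difference 1.42 ± 0.47, adjusted p = 0.0291). The call for Mycn was lost without 2 weeks replicate 3 (0.88, adjusted p = 0.162) or 4 (1.45, 0.0621), under total-count scaling (0.81, 0.154) and after the GC correction (0.72, 0.331). The call for Igf2bp2 was lost without 2 weeks replicate 1 (adjusted p = 0.101), 2 (0.105) or 4 (0.0794) and without 7 weeks replicate 1 (0.0647) or 2 (0.0637). Lin28b and Hmga1 did not pass this test, and the counts of Lin28b after birth were too few for it. Igf2bp1 and Hmga2 also held only 22 and 15 counts in all at 2 weeks. A second fall as deep as the first could not have been seen for them, so their calls say little about timing after 2 weeks.

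The order of levels per length turned over with age. At E18.5 Igf2bp2 (9.45 CPM per kb) and Igf2bp3 (8.48) led, followed by Igf2bp1 (2.63) and Hmga2 (2.5), then Hmga1 (1.03) and Mycn (0.641), with Lin28b last (0.05). The libraries of each of these pairs overlapped, and those of different pairs did not. At 2 weeks Hmga1 (2.75) and Igf2bp2 (1.47) led and overlapped, Mycn (0.545) and Igf2bp3 (0.269) followed and overlapped, and Hmga2 (0.0113) and Igf2bp1 (0.00863) overlapped near the bottom. At 7 weeks the order was the same, with Hmga1 (3.27) now clear of Igf2bp2 (0.976).

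**Figure D5:**
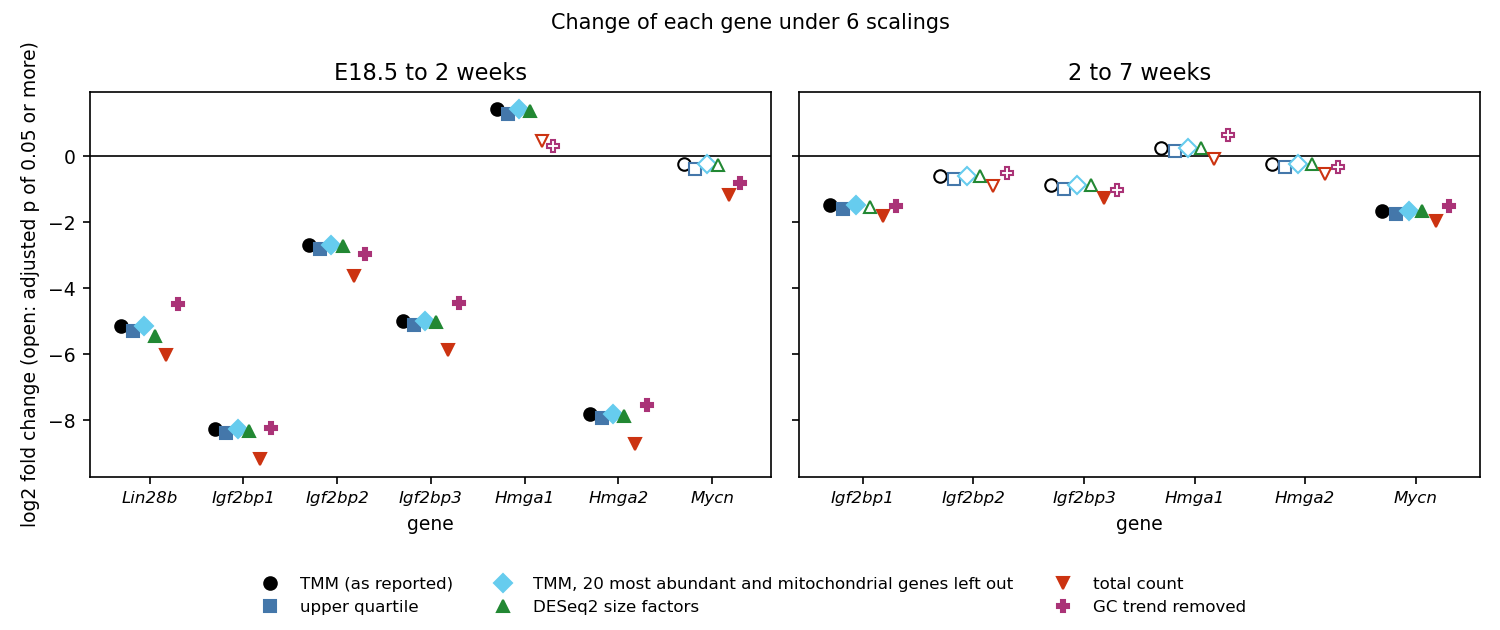
Log2 fold change of the 7 genes to 2 weeks and of 6 genes from 2 to 7 weeks under 6 scalings. Filled points have an adjusted p below 0.05, and Lin28b is left out on the right because it was at or under the floor at both ages. To 2 weeks the 5 falling genes stay negative throughout, while Hmga1 drops from 1.41 to 0.45 and 0.31 and Mycn moves from -0.23 to -1.17 and -0.81 (total-count scaling first, GC correction second).

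The genes whose log2 CPM ran most alike over the 12 libraries were looked up among 11885 genes. Pearson's r is given as a description, since all points share 3 ages and their libraries. Igf2bp1 ran closest to Myh3 (r = 0.998) and Myh8 (0.996), the embryonic and perinatal myosin heavy chains of skeletal muscle, and then to Dcaf12l1 (0.99). Lin28b ran closest to Gprasp2 (0.997), Mir503hg (0.996) and Usp29 (0.995), and Igf2bp3 to Sfrp1 (0.993), a secreted WNT inhibitor, Dixdc1 and Phka2 (both 0.992). For Lin28b 15 genes reached an r of 0.99, and its later libraries held 1 or 0 counts. Its r thus reflects little more than E18.5 against the later ages. The later libraries of Igf2bp1 and Hmga2 also held few counts. Igf2bp2 ran closest to Cep128 (0.982) and to Spag5 and Sema3a (both 0.981), Hmga2 to Pabir2 (0.99), Vhl (0.988) and Scn3b (0.987). Hmga1 ran closest to Hmga1b (0.981), with which it shares sequence, then to Ung (0.979) and Rnf126 (0.975). Mycn had the weakest best match, Tlnrd1 (0.961), followed by Cd109 (0.95) and Vim (0.947).

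Igf2bp3 and Lin28b promoters are printed because they hold the E-box CACGTG, the motif that MYC family proteins bind with MAX. The RefSeq windows run from 250 bases before to 50 after the gene start (build GRCm38.p6, E-boxes in capitals), and Igf2bp1 is not in the table. CACGTG reads the same on both strands, and the pair in Igf2bp3 does not overlap. Of 32851 mouse promoter windows 7.15% held this motif. Hmga1, Hmga2, Igf2bp2 and Mycn had none in this window.
Igf2bp3 promoter, chr6:49214905-49215204, minus strand: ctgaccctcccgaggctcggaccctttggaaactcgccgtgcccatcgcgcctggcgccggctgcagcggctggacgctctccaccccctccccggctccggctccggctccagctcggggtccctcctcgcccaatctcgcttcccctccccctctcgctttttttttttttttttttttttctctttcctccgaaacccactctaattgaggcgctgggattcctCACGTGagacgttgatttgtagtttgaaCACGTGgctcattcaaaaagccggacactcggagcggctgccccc
Lin28b promoter, chr10:45470152-45470451, minus strand: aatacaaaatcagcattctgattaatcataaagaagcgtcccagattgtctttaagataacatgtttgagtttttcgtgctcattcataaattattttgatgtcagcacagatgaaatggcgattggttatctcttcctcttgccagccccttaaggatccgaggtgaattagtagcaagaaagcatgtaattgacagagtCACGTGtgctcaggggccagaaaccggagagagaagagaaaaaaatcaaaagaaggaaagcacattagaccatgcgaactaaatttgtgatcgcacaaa

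Of 12 listed genes of the let-7 processing machinery around LIN28B, 5 fell and 2 rose to 2 weeks, with a median log2 change of -0.23. The share lower was near the 34.2% of all tested genes, and that higher below the 31.5% of all. Ago2, the slicing Argonaute (-1.78 ± 0.20 SE), and Tut4, a uridylating enzyme that works with LIN28 (-1.67 ± 0.20), fell most. Tarbp2, the partner of Dicer, rose (1.29 ± 0.23), as did Dis3l2, the nuclease that degrades uridylated let-7 precursors (0.31 ± 0.13, edgeR adjusted p = 0.0476). Scaled to the total count, mean Dis3l2 went down from 19.22 CPM at E18.5 to 12.48 at 2 weeks, while Tarbp2 went from 23.22 to 30.1. Between 2 and 7 weeks 6 rose, among them Tut4 (0.87) and Drosha (0.71), and Lin28a alone fell. Over all tested genes 13.5% were higher and 14.0% lower in that interval. The long host RNAs Mir100hg and Mir99ahg, whose loci carry let-7 genes, fell to 2 weeks by 1.71 and 0.80 on the log2 scale, and Mirlet7bhg was not matched in the count table.

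Of 13 other genes known as let-7 targets in fetal tissues, 9 fell and none rose to 2 weeks (edgeR, adjusted p below 0.05), beside 34.2% lower and 31.5% higher among all tested genes, with a median log2 change of -1.04. Trim71, a ubiquitin ligase of stem cells that holds 4 seed matches, had 154 counts at E18.5, 3 at 2 weeks and 0 at 7 weeks. Plag1, a zinc-finger factor that activates Igf2, fell by 3.66 on the log2 scale but held 0 matches in its 3′ UTR of 2694 nt. Nr6a1, an orphan nuclear receptor with 8 matches, did not pass to 2 weeks (0.11 ± 0.19, adjusted p = 0.634) and rose from 2 to 7 weeks (1.14 ± 0.19), when Igdcc3 (-1.04) and Ccnd2 (-0.71) fell. In all, 12 genes had 4 or more matches, of which 7 fell to 2 weeks and 0 rose, beside 34.2% and 31.5% of all tested genes. Among the 7 were Lin28b, Igf2bp1 and Hmga2, which had been chosen with earlier results known, and Trim71, Trim6, Nopchap1 and Zbtb37. The annotated 3′ UTRs of Nopchap1 (122583 nt) and Zbtb37 (16999 nt) were very long, and matches are common in long 3′ UTRs. Among tested genes with a 3′ UTR of 3000 nt or more and no match, 47.4% were lower at 2 weeks, more than the share of all genes. A link between matches and falls was not tested in these genes.

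The shares of lower genes were also counted by number of let-7 matches among tested genes with a 3′ UTR. This count was made after the values had been seen and left out the 7 genes. Over UTRs of any length 34.8% of 12892 genes without a match were lower at 2 weeks, 38.7% of 1549 with 1 match and 38.2% of 246 with 2 or more, with median log2 changes of -0.04, -0.18 and -0.19. Among UTRs of 3000 nt or more the shares were 47.4% of 2403 genes, 46.3% of 657 and 41.7% of 168, with medians of -0.39, -0.38 and -0.24. The order seen over all lengths was thus not seen among long UTRs. These differences were not tested.

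The other high mobility group genes encode small chromatin proteins related in name and not in fold to HMGA. All 7 of those listed were lower at 2 weeks, beside 34.2% of all tested genes, with a median log2 change of -1.07, led by Hmgn1 (-1.98 ± 0.16 SE) and Hmgb2 (-1.68 ± 0.17). Between 2 and 7 weeks Hmgb2 (-2.53), Hmgn2 (-1.34) and Hmgn3 (-1.28) fell again. Hmgb2 is a gene of dividing cells, and the proliferation markers fell over the same ages. The part of dividing cells in the change of Hmgb2 was not tested.

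In the MYC network, 3 of 10 listed genes rose and 3 fell to 2 weeks, close to the shares of all tested genes (31.5% and 34.2%), with a median log2 change of -0.04. Max, the obligate partner of MYC proteins (0.49), and its antagonist partners Mxd4 (0.82) and Mxi1 (0.70) rose, and Mycl (-1.81), Mga (-1.22) and Mxd1 (-0.51) fell. The 3 rises held on the TMM scale only. Scaled to the total count, mean CPM from E18.5 to 2 weeks went from 40.28 to 29.81 for Max and from 96.05 to 88.31 for Mxd4. For Mxi1 it went from 30.92 to 26.46. In the later interval Myc (-1.51), Mycl (-2.55) and Mxd3 (-5.45), a MAX partner of cycling cells, fell together with Mycn, and Mxi1 rose (1.08).

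Among 5 RNAs known to be bound by IGF2BP proteins, Igf2, the fetal growth factor that gave the family its name, fell by 2.69 on the log2 scale to 2 weeks and by 3.44 from 2 to 7 weeks. Cd44, a cell adhesion receptor, fell in both intervals (-2.28 and -1.11). Actb rose to 2 weeks (0.60) and fell after it (-0.91). The rise of Actb held on the TMM scale only, as its mean scaled to the total count went from 435.4 CPM at E18.5 to 345.8 at 2 weeks. H19, the RNA expressed beside Igf2, and Myc did not pass to 2 weeks (-0.36 and -0.22) and fell after it (-2.45 and -1.51). All 5 thus fell between 2 and 7 weeks, beside 14.0% of all tested genes, when of the Igf2bp genes only Igf2bp1 passed, from 22 counts to 6. Of the 7 other oncofetal genes Afp was not tested at 13 counts, Dlk1 (-3.66), Gpc3 (-3.41) and Igf2 fell to 2 weeks, and Sall4 rose (3.35 ± 0.51). Mdk (-0.65 ± 0.40 SE, edgeR adjusted p = 0.166) and H19 did not pass. Over all tested genes 34.2% were lower and 31.5% higher to 2 weeks.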

How the data were processed

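RNA from TA muscle of 12 wild-type mice was sequenced after poly(A) selection with a stranded kit. The authors deposited 1 table of raw read counts per gene, with Ensembl gene IDs and no normalisation. Per the labels the submitters used bcl2fastq 2.17.1.14, cutadapt 1.10, STAR 2.5.3a and HTSeq 0.6.1p1 with build mm10. The paper's methods name GRCm39. The annotation and strand setting of the counting are not given in the sources used here. The table holds no coordinates, so gene positions, transcripts and 3′ UTRs come from GENCODE vM39 (GRCm39), in which 51477 of 55450 IDs were found, and microRNAs and promoters from RefSeq (GRCm38.p6). The reference transcript of a gene was its consensus coding transcript with the longest 3′ UTR. Its length gave CPM per kb.

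Counts were tested with edgeR 4.0.16 (filterByExpr, TMM, robust quasi-likelihood fit on age over all 12 libraries, R 4.3.3), with Benjamini-Hochberg adjustment over 19276 genes and a threshold of 0.05. The filter removed 36174 genes. Fitted log2 changes use a prior count, so those of genes with almost no counts are replaced by count ratios with exact 95% intervals or by a floor of 3 counts. Lists are described by counts of calls. The 7 genes, the lists and the markers were chosen with earlier results of these data known. From each list the 2 largest rises and falls past the threshold were named, or every called gene where 5 or fewer were listed. The procedure was tested on simulated data. A chi-square test of the counts found each of the 18 pairs of same-age libraries to differ beyond sampling noise (31.2 to 524 per degree of freedom), and no library was merged with another. Alternatives were other scalings, filters, DESeq2 1.42.0, a minimum fold, a replicate block, fewer libraries and leaving out each library.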

Additional observations from a re-analysis of the deposited data

Results flagged for a closer look

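One value stood apart within its age. Hmga2 in 7 weeks replicate 1 was at 0.120 CPM, from 6 counts, while the other 3 libraries of that age lay at 0.0155 to 0.0306 CPM, from 1 or 2 counts. Of 20 sets of 4 libraries tested in this way 1 was expected to stand apart by chance. The same library had the highest Igf2bp3 value at 7 weeks (0.963 CPM), the lowest Hmga1 value (3.41 CPM) and the highest sum of fibroblast markers, 2850 CPM beside 803 to 1360 in the others.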

How the results depend on the processing

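Over the 7 genes, 3 comparisons and the difference of the intervals, 619 values were recomputed, of which 580 kept their direction and side of the threshold, 29 lost and 5 gained the call, and 5 changed sign. The falls of Lin28b, Igf2bp1, Igf2bp2, Igf2bp3 and Hmga2 to 2 weeks kept their call in each alternative that tested them. A filter of at least 10 counts in every library removed Lin28b, Igf2bp1 and Hmga2, which alone took the changed genes to 3 of 4 tested (to 2 weeks), 1 (2 to 7 weeks), 4 (to 7 weeks) and 3 (intervals). From 2 to 7 weeks the 2 called genes became 1 with no filter, with DESeq2 and with the replicate block, 1 with the 8 libraries compared, where Igf2bp1 was filtered out and not tested, 3 with total counts, and 0 when a log2 change beyond 1 was asked. Leaving out 1 library gave 1 to 3. The interval count of 5 was 3 with no filter and with the replicate block, 4 with either total-count scaling or the GC correction, and 3 to 6 without 1 library. Asking for a log2 change beyond 1 called 5510, 564 and 7571 of all genes, against 12659, 5297 and 13749. Leaving out 1 library the count from 2 to 7 weeks ranged from 3474 (without 2 weeks replicate 1) to 6149. Signs turned for Hmga1 from 2 to 7 weeks (-0.08, total counts) and its interval difference (-0.32, GC trend removed), and for Hmga2 from 2 to 7 weeks without 2 weeks replicate 3 (0.46) or 7 weeks replicate 2 (0.07) or 4 (0.04) in a range of -1.2 to 0.46, none of them called. The cause was not tested. Same-numbered mice correlated at -0.283 to 0.514 with 5 of 12 pairs over 0.1, and in 5 of 12 the own number gave the best match. The highest value was that of replicate 1 at E18.5 and 7 weeks. Whether the numbers mark a shared batch cannot be told from these values, so the replicate block was kept as an alternative only. Leaving out E18.5 replicates 3 and 4, chosen after seeing the adipocyte markers, ended only the Mycn interval call (1.18, adjusted p = 0.0885). At these depths a gene at 0 counts could still lie under 0.0125 CPM at 7 weeks.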
